A study of Mus musculus with 2 samples.

Results

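The RNA-poor, mitochondria-rich whole myofibers were 265 of the 670 whole myofibers in the deposited table (39.6%), and of 763 cells in all. They were selected on measured values, as whole myofibers with at most 5000 genes detected, at least 20% of gene counts from the mitochondrial genome and at least 5000 gene counts. The highest number of genes inside the limit was 4893, and the nearest myofiber outside it had 5002. The lowest mitochondrial share inside was 20.9% and the nearest below the limit was 19.9%, while the lowest gene count inside was 5024 and the nearest below it was 4959.

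All cells were isolated from 1 muscle of the foot, the flexor digitorum brevis (FDB), of 1 untreated C57BL/6J mouse older than 3 months, and the study's methods name adult males. The muscle was digested with collagenase, single myofibers were sorted on a large particle cytometer into plate wells, and libraries were made with mcSCRB-seq, in which each captured molecule carries a unique molecular identifier (UMI) and is counted once. The cells that are not whole myofibers are called fragments below. For its fragments the paper describes a separate approach, a pseudo-biopsy, in which pieces of the muscle were cut out with scissors. The RNA-poor myofibers were compared with the 168 whole myofibers that had over 5000 genes and under 20% mitochondrial counts, called comparison myofibers below. Because 1 mouse gives no replicate, no p-value was computed, and the spread is shown over cells and over the 8 plates, each of which held 27 to 42 RNA-poor and 16 to 26 comparison myofibers. The sorting gates of the whole myofibers were not analysed here, and no measure of membrane damage was used.

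A myofiber is 1 long cell with many nuclei, packed with sarcomeres, the repeating units of thick and thin filaments that contract. Most of its messenger RNA encodes sarcomere, calcium handling and energy proteins and lies in the cytoplasm, while long noncoding RNAs such as Malat1 and Neat1 stay in the nuclei, and mitochondria keep their own genome, ribosomes and transcripts behind a double membrane. In single-cell work a high mitochondrial share with few genes is widely used as a mark of a cell that has lost cytoplasmic RNA.

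The RNA-poor cells carried the RNA of myofibers. Counts of Acta1 (skeletal actin), Ckm (muscle creatine kinase), Ttn (titin), Myh1 and Myh2 (fast myosin heavy chains) were found in all 265 cells. Per cell, Ttn counts ranged from 82 to 1922 with a median of 317, and Acta1 counts from 48 to 782 with a median of 213. Ttn and Acta1 were the first and the second nuclear gene by level in both groups, and 38 of the 50 highest genes of each group (76%) were on both lists.

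Nuclear RNA was scarce in these cells and mitochondrial RNA was not. Spike-in RNA added to each well was used as the yardstick, under the assumption that every well received the same amount. Nuclear counts per spike-in count ranged from 15.7 to 1760 with a median of 106 in the RNA-poor myofibers, and from 223 to 3634 with a median of 1272 in the comparison myofibers. The median was thus 12.1-fold lower, and within single plates it was 6.89-fold to 17.1-fold lower. Of the 265 RNA-poor cells, 219 lay below the lowest comparison cell. Mitochondrial counts per spike-in count had a median of 135 (14 to 1363) in the RNA-poor and 72.0 (8.95 to 366) in the comparison myofibers, 1.88-fold higher, with plates from 1.31-fold to 3.38-fold higher. The ranges overlapped, and 221 of the 265 RNA-poor cells (83.4%) were above the comparison median. These amounts follow in part from the limits that chose the cells and are a description. Raw depth moved with the groups: the medians were 17283 gene counts, 7238 of them nuclear, from 74036 reads in the RNA-poor cells, and 241495 gene counts from 1664040 reads in the comparison cells, with 4.15 and 6.90 reads per count and 78 and 193.5 spike-in counts per cell.

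**Figure D1:**
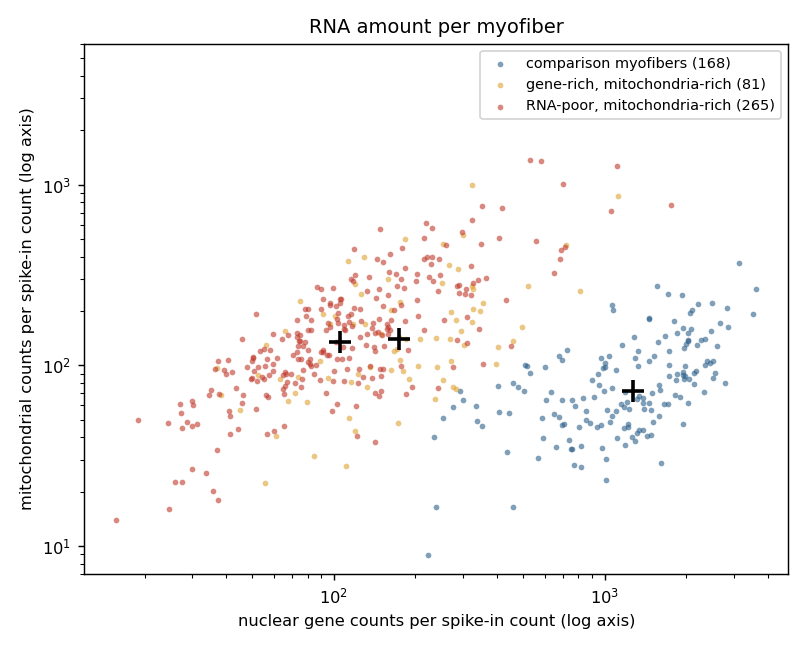
Each point is 1 myofiber, with nuclear gene counts per spike-in count on the horizontal and mitochondrial counts per spike-in count on the vertical log axis, and crosses mark the group medians. The RNA-poor cells (median 106 nuclear, 135 mitochondrial) lie to the left of the comparison cells (median 1272 nuclear, 72.0 mitochondrial), beside gene-rich cells with a high mitochondrial share (median 174 nuclear, 139 mitochondrial).

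At equal numbers of nuclear counts the genes detected were nearly even. When every cell was thinned to 2000 nuclear counts, the RNA-poor myofibers had a median of 1040 genes (806 to 1343) and the comparison myofibers 1076.5 (834 to 1558), against 2771 and 12247 genes without thinning.

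The question put to the remaining nuclear RNA was whether it had the composition of an ordinary myofiber. Counts were summed over the cells of each group and divided by the summed nuclear counts, 2277499 in the RNA-poor and 48576640 in the comparison myofibers, and scaled to 1000000, to give nuclear CPM. Of the 6237 genes with a mean of at least 20 nuclear CPM, 86.4% were within 2-fold between the groups. At least 2-fold higher in the RNA-poor cells were 618 genes (9.91%) and at least 2-fold lower were 232 (3.72%). The median log2 ratio of RNA-poor over comparison was -0.13, and 60.2% of the tested genes were below 0, the share beside which counts of list genes below 0 are to be read. A gene low in 1 group passed the minimum only if it was high in the other, as 574 genes did through the RNA-poor and 338 through the comparison cells alone, so that counts of tested genes describe those genes only. This split depended on the scaling: factors from the trimmed mean of M values (TMM) gave 428 higher and 551 lower, and the median of ratios gave 397 and 638, since both moved the median of the tested genes to -0.39 and -0.42. List medians below are on totals and are read beside the median of -0.13. Genes given as the lowest or highest of a list or set, and the examples Gm29216 and Gm13340, were chosen after their values were seen.

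Sarcomere messages took a smaller share of the nuclear RNA than in the comparison myofibers. Together the 48 sarcomere genes in the table made up 18.6% of nuclear counts in the RNA-poor and 23.1% in the comparison myofibers, and in single RNA-poor cells from 8.75% to 29.4% with a median of 18.6%, against 4.31% to 33.0% with a median of 23.1%. The ranges overlapped in full, and 243 of 265 RNA-poor cells were below the comparison median. All 47 sarcomere genes tested had at least 20 CPM in both groups. Of these, 42 had a ratio below 0 (all tested genes 60.2%), 2 were at least 2-fold lower, a share near the 3.72% of all tested genes, and 1 was at least 2-fold higher. The median log2 ratio was -0.34, with plates from -0.45 to -0.19. Per spike-in count, the summed sarcomere counts were 17.1-fold lower.

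Among thick filament genes, Mylpf (fast regulatory light chain) was at 11766 CPM in the RNA-poor and 13718 CPM in the comparison myofibers. Its log2 ratio was -0.22, with 95% counting limits from -0.24 to -0.20. Myh1 had 6179 and 10265 CPM, Myl1 (fast essential light chain) 5145 and 8271 CPM, and Myh2 3318 and 4890 CPM, with log2 ratios of -0.73, -0.69 and -0.56, each below 0 in all 8 plates. Over single cells Myh1 ranged from 1082 to 19006 CPM (median 5803) in the RNA-poor and from 696 to 28662 CPM (median 9239) in the comparison group. Myh8, the neonatal myosin heavy chain, singled out after its values were seen, was the lowest of the list at 121 against 712 CPM. Its log2 ratio was -2.55 (limits -2.73 to -2.38), below 0 in 8 of 8 plates. Myosin genes share stretches of sequence, so that some reads could belong to a neighbouring member.

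Thin filament genes had small shifts to lower levels. Acta1 had 28624 and 31305 CPM (log2 ratio -0.13), Tpm1 (tropomyosin) 12162 and 14112 CPM (-0.21), Tnnt3 (fast troponin T) 9547 and 12177 CPM (-0.35) and Neb (nebulin, which sets thin filament length) 12205 and 16125 CPM (-0.40). All 15 tested genes of the list had a ratio below 0, the lowest being Tnnc2 (fast troponin C) at 276 against 974 CPM (-1.82). At the Z-disc, which anchors thin filaments, Ttn had 49471 and 62630 CPM (-0.34, limits -0.35 to -0.33) and Xirp2 (a Xin actin-binding repeat protein) 1769 and 3001 CPM (-0.76). Tcap (titin-cap) had 8922 and 8085 CPM (0.14) with 6 of 8 plates above 0, and Actn3 (fast alpha-actinin) 2204 and 2169 CPM (0.02) with plates on both sides of 0. Myoz3, a calsarcin that binds alpha-actinin, stood apart at 302 against 29.0 CPM (3.38, limits 3.25 to 3.51), and 172 of 265 RNA-poor cells were above the highest comparison cell. Myoz3 was singled out after its values were seen, and in the shallowest RNA-poor cells a single count lay above the highest comparison cell.

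Calcium handling and energy genes shared this small shift. In the membrane and calcium handling list 16 of 18 tested genes had a ratio below 0, against 60.2% of all tested genes, with a median of -0.36 (plates -0.50 to -0.26). Atp2a1, the fast calcium pump of the sarcoplasmic reticulum, was at least 2-fold lower at 1443 against 3160 CPM (log2 ratio -1.13), and so was Dmd (dystrophin, which links the cytoskeleton to the membrane) at 1015 against 2047 CPM (-1.01). Trdn (triadin, at the calcium release site) had 1496 against 2752 CPM (-0.88), and Pvalb (parvalbumin, a calcium buffer) 3933 against 5647 CPM (-0.52). Ryr1, the calcium release channel, had 4589 and 4943 CPM (-0.11). Of 17 glycolytic genes 16 were below 0, with a median of -0.38 (plates -0.45 to -0.25). Aldoa (aldolase) had 13085 and 13601 CPM (-0.06), Eno3 (muscle enolase) 4474 and 4822 CPM (-0.11) and Pygm (glycogen phosphorylase) 3153 and 3551 CPM (-0.17), while Ckm had 2750 and 4430 CPM (-0.69). The lowest in the list were Gapdh (-1.27) and Pgk1 (-1.22), both of which have processed pseudogene copies in the genome, so that their counts are uncertain.

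The nuclear-encoded part of the respiratory chain did not follow the mitochondrial transcripts. Of 75 tested genes 69 had a ratio below 0, where all tested genes had 60.2%, 9 were at least 2-fold lower, where all had 3.72%, and 1 was at least 2-fold higher. The median was -0.51 (plates -0.61 to -0.39). Atp5b (beta subunit of ATP synthase) had 750 and 1103 CPM (-0.56), Cox6a2 (muscle form of a cytochrome oxidase subunit) 1124 and 1423 CPM (-0.34) and Atp5d (delta subunit) 1129 and 1030 CPM (0.13, with plates on both sides of 0). Cox6b1, another cytochrome oxidase subunit, was the exception at 1675 against 610 CPM (1.46, limits 1.41 to 1.51), above 0 in all 8 plates. All 17 citric acid cycle genes were below 0, with a median of -0.47, among them Mdh2 (-0.40), Cs (-0.55), Idh3b (-0.46) and Ogdh (-0.22). For comparison, summed mitochondrial counts per summed nuclear count were higher in the RNA-poor cells by 4.59 on the log2 scale, a value that the selection fixed.

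Cytosolic ribosomal protein genes had the lowest median of the large lists, -0.67 (plates -0.86 to -0.51), with 75 of 78 below 0 and 10 at least 2-fold lower, against 60.2% and 3.72% of all tested genes. Among those with the highest levels, Rpl8 had 715 and 649 CPM (0.14), Rps14 616 and 656 CPM (-0.09) and Rplp1 573 and 733 CPM (-0.36). The lowest were Rpl23a (-2.25) and Rps28 (-1.55). Ribosomal protein genes have many processed copies in the genome, and their counts are uncertain for the same reason as those of Gapdh. Myogenic and fibre-type regulators had a median of -0.63, with 15 of 16 below 0 and none 2-fold apart, including Mef2c (1027 and 1773 CPM, -0.79), Nfix (425 and 810 CPM, -0.93), Tbx15 (-0.64) and Eya4 (-0.29). In the neuromuscular junction list, Musk (-0.39), Chrna1 (-0.66), Chrnb1 (-0.76) and Ufsp1 (-0.10) were on the same side, with 10 of 11 genes below 0.

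Stress genes did not stand out. The heat shock list had a median of -0.22, with Hsp90ab1 at -0.08, Cryab at -0.47, Hspb6 at -0.16 and Hspb1 at -0.53, and the protein breakdown list -0.31, with Sqstm1 at -0.16, Trim63 at -0.50, Map1lc3a at -0.09 and Fbxo32 at -0.61. Immediate early genes, transcribed within minutes of a stimulus, had a median of -0.11, with 9 of 20 above 0 and plate medians from -0.48 to 0.17. Fos (-0.22), Egr1 (-0.18), Jun (-0.05) and Junb (-0.20) were all within 2-fold.

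**Figure D2:**
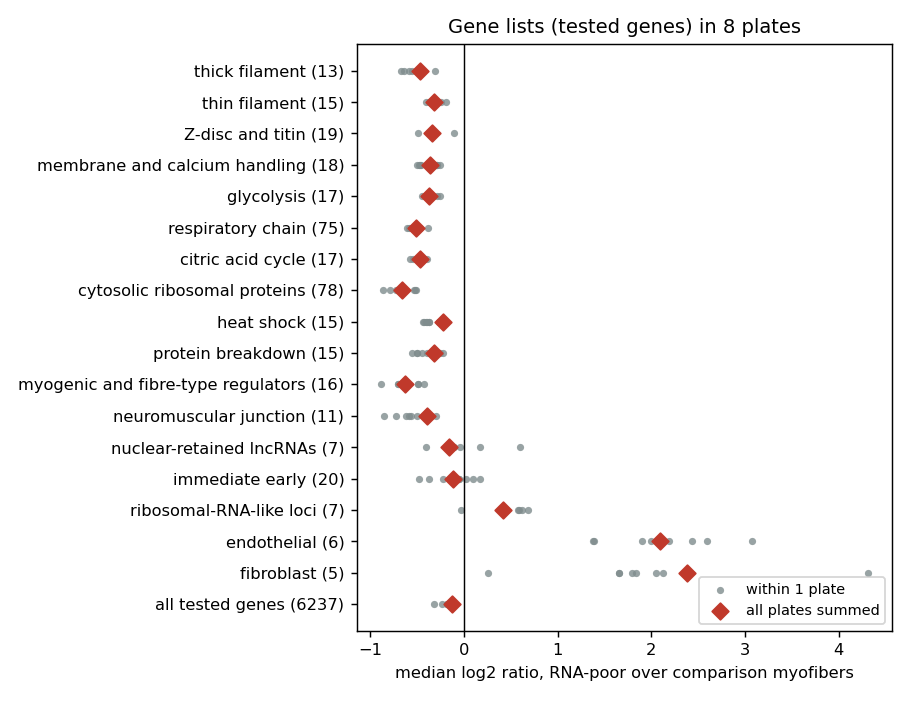
Each row is a gene list with its number of tested genes, the horizontal axis is the median log2 ratio of RNA-poor over comparison myofibers, grey points are the 8 plates and diamonds the sums over all plates. Lists of fibre genes, such as the respiratory chain (-0.51), lie below 0 in every plate, while nuclear-retained lncRNAs (-0.16) have plates on both sides and endothelial (2.09) and fibroblast (2.38) lists lie above 0.

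RNAs that stay in the nuclei had a lower summed level, carried by Malat1. The 15 genes of the nuclear-retained list made up 2393 CPM in the RNA-poor and 3552 CPM in the comparison myofibers, a log2 ratio of -0.57 for the sum, and without Malat1 1175 and 1268 CPM, a log2 ratio of -0.11. Of the 7 that could be tested, 3 were above and 4 below 0, and their median of -0.16 changed sign with the plate, with 2 plates above and 6 below 0. It was 0.18 on lane 1 alone. Malat1 had 1219 CPM in the RNA-poor and 2284 CPM in the comparison cells (-0.91, limits -0.96 to -0.85), below 0 in all 8 plates. Single cells ranged from 0 to 9191 CPM (median 990) and from 139 to 9135 CPM (median 1826), so that the groups overlapped in nearly their whole range. Neat1, which builds paraspeckles, had 819 and 972 CPM (-0.25), and Airn 103 and 115 CPM (-0.16). Pvt1 was higher at 74.2 against 39.1 CPM (0.93) in 7 of 8 plates. Tug1, singled out after its values were seen, was the 1 gene of the 7 tested that was at least 2-fold higher (1.74). Of the 7 tested genes, 1 passed the minimum through the RNA-poor cells alone. At any level, 8 of the 15 genes were above and 7 below 0, and 2 (13.3%) were at least 2-fold higher, against 20.7% of all genes with a count.

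Loci known to collect reads of ribosomal RNA had a median of 0.42 over 7 tested genes. Camk1d had 9528 and 10653 CPM (-0.16, plates on both sides of 0), Cdk8 4104 and 3489 CPM (0.23), Gm26917 3624 and 2706 CPM (0.42) and Gm15564 1838 and 1318 CPM (0.48). Their sum in single RNA-poor cells ranged from 0.641% to 9.45% of nuclear counts, and 10 cells held 28.6% of it.

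Of the 10 genes that stood furthest above the comparison cells with the same direction in every plate, 6 were copies of mitochondrial genes. At least 8-fold higher were 65 genes (1.04% of those tested), which together made up 9.12% of nuclear counts in the RNA-poor and 0.435% in the comparison myofibers. Of all tested genes, 12 (0.193%) shared at least 30 bases in a row with 1 of the mitochondrial transcripts, and these 12 were among the 65. As 6 of the 12 were under 20 CPM in the comparison cells, they passed the minimum only through the RNA-poor cells. At any level, 19 genes with a count shared such bases, and 18 of the 19 were at least 2-fold higher, against 20.7% of all genes with a count. The log2 ratios of the 12 tested genes ran from 3.57 to 5.38, and 11 of the 12 are annotated as pseudogenes, stretches of mitochondrial DNA that have been copied into nuclear chromosomes. In 10 of them at least 1 whole stretch of 66 bases, the length of the cDNA read, was identical to a mitochondrial transcript, so that a read from there has no letter by which to tell the copies apart.

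The sequences below, read from the GENCODE M21 transcripts (GRCm38), are shown because every one of their 66 letters is the same in a mitochondrial messenger RNA. They come from 3 neighbouring pseudogenes on the minus strand of chromosome 1. The pseudogenes lie at chr1:24614885-24615565 (Gm28661), chr1:24613974-24614651 (Gm10925) and chr1:24615706-24616197 (Gm29216), and the stretches match bases 1 to 66 of mt-Co2, bases 1 to 66 of mt-Atp6 and bases 1067 to 1132 of mt-Co1.
Gm28661: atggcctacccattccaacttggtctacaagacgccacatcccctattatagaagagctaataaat
Gm10925: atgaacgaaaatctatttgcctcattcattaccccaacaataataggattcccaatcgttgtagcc
Gm29216: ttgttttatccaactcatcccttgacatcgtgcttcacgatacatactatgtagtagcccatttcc

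Gm28661 had 1905 CPM in the RNA-poor and 50.1 CPM in the comparison myofibers (log2 ratio 5.25, limits 5.18 to 5.32), Gm10925 1236 and 31.5 CPM (5.29) and Gm29216 5342 and 183 CPM (4.86). In single RNA-poor cells Gm28661 ranged from 0 to 7700 CPM with a median of 1271, and 239 of 265 cells were above the highest comparison cell at 341 CPM. The gene mt-Co2 itself had 149 counts in all RNA-poor cells, while Gm28661, in which every stretch of 66 bases is shared, had 4339. Gm28437 was the highest of the set at 6695 and 191 CPM (5.13), and Gm28438 had the largest ratio of the set (5.38). The protein-coding exception was Gm20594, which shared 65 bases with mt-Rnr2 and had the smallest ratio of the set, 3.57.

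In Gm13340, on the minus strand at chr2:22588103-22589647, 37 of 1545 aligned bases differ from mt-Co1 (97.6% identity). A window of 66 bases with a pair of differences in capitals shows how a read can tell these copies apart. Counted from the first base of the window, with the mitochondrial letter first, the differences are C50A and A56G.
Gm13340: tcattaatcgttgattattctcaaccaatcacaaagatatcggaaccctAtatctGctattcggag
mt-Co1: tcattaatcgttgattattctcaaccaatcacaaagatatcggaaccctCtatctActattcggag
Gm13340 had 3644 CPM in the RNA-poor and 117 CPM in the comparison myofibers (4.96), and 19.1% of its stretches of 66 bases were shared with a mitochondrial transcript.

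**Figure D3:**
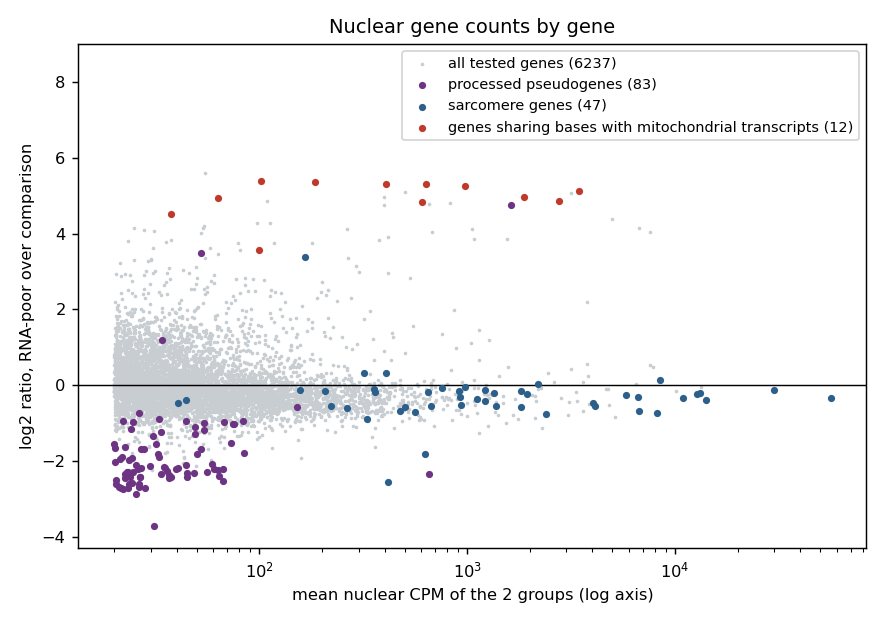
Each point is 1 of 6237 tested genes, with the mean nuclear CPM of both groups on a log axis and the log2 ratio of RNA-poor over comparison myofibers on the vertical axis. The 12 genes that share bases with mitochondrial transcripts lie between 3.57 and 5.38, most sarcomere genes (median -0.34) lie just below 0, and most of the 83 processed pseudogenes without such bases, 58 of which passed the minimum through the comparison cells alone, lie well below it.

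The other 53 genes at least 8-fold higher shared no 30 bases with a mitochondrial transcript. Most of them, Krt2 included, were under 20 CPM in the comparison cells and so passed the minimum only through the RNA-poor cells. Of the 53 genes, 38 are protein coding and 10 are lincRNAs, against 5861 and 124 of all 6237 tested genes. The markers Rgs5, Kdr, Hbb-bs and Hba-a1 of the cell type lists, described below, are 4 of the 53. Fabp4, Aqp1, Ly6c1 and Tmsb4x, on no list and picked after their values were seen, had 5.66, 8.69, 5.48 and 10.4 CPM in the comparison cells. In whole myofibers with at most 5000 genes and under 20% mitochondrial counts they had 199, 61.4, 57.8 and 101 CPM. There Trhde, by contrast, was at 422 CPM against 455 CPM in the comparison cells. The part of other cells' RNA in the 53 was not tested. In every plate, 49 of the 53 were higher. By counts the leading ones, singled out after their values were seen, were the lincRNA Gm13667 (14303 against 871 CPM, log2 ratio 4.04), the transcribed processed pseudogene B230303A05Rik (12632 against 714 CPM, 4.14) and Trhde, which encodes an enzyme that degrades thyrotropin-releasing hormone (9521 against 455 CPM, 4.39, limits 4.36 to 4.41). Trhde ranged from 177 to 35744 CPM (median 7448) over single RNA-poor cells and from 125 to 1915 CPM (median 405) over comparison cells, and 242 of 265 RNA-poor cells were above that range. By ratio the leading ones were Krt2, a keratin of the epidermis (107 against 2.22 CPM, 5.58, limits 5.25 to 5.93), the lincRNA 1700019J19Rik (976 against 28.6 CPM, 5.09), Myo3a, an unconventional myosin of sensory hair cells (6130 against 181 CPM, 5.08), and Unc5b, a netrin receptor (771 against 24.6 CPM, 4.97). Krt2 was counted in 129 of 265 RNA-poor cells, and each of these was above the highest comparison cell at 31.3 CPM. Depth fixed this, since with at most 26952 nuclear counts per RNA-poor cell a single count already lay above that level. The span of Myo3a, on the plus strand at chr2:22227503-22618252, holds the mitochondrial copies Gm13341, Gm13340 and Gm13339 on the minus strand. Their log2 ratios were 5.32, 4.96 and 5.36. The transcripts were compared but not the introns, and whether reads in introns were counted is not given in the sources used here. The part of these copies in the Myo3a counts was not tested.

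Set against mitochondrial in place of nuclear counts, the sums of both sets were within 2-fold. This scale takes 4.59 off every log2 ratio. Since the genes were chosen as at least 8-fold higher, the lower end of their ratios on it was fixed by that choice. Per 1000000 mitochondrial counts, the 12 genes with shared bases had 14331 counts in the RNA-poor and 10623 in the comparison myofibers, a log2 ratio of 0.43. The other 53 genes had 45830 and 58394, a log2 ratio of -0.35. Gene by gene the ratios on this scale ran from -1.01 to 0.79 for the 12, with a median of 0.46, and from -1.58 to 1.00 for the 53, with a median of -0.74. Sarcomere genes on the same scale had a log2 ratio of -4.90, which holds the same shift of 4.59. Per spike-in count, the 12 genes were 2.36-fold higher and the 53 genes 1.37-fold higher, where sarcomere counts were lower. Within the comparison myofibers Spearman's rho between the mitochondrial share and the summed CPM was 0.788 for the 12 genes and 0.560 for the 53 genes over 168 cells, and within the 265 RNA-poor cells it was 0.841 and 0.778. These are descriptions, as both measures of a cell come from the same library and depth and the 53 genes were chosen by their ratio. Leaving the 65 genes out of the total moved the median of the tested genes from -0.13 to 0.00.

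**Figure D4:**
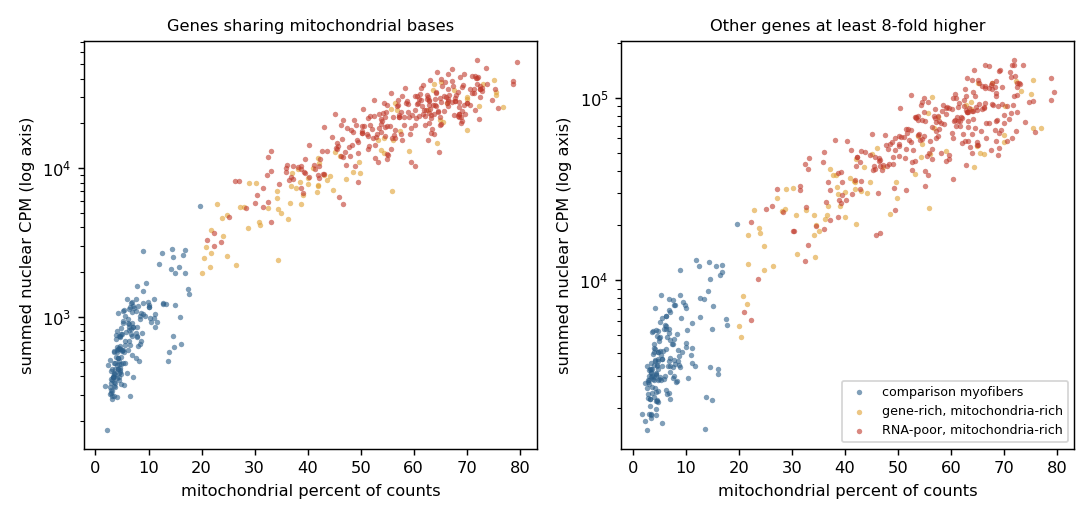
Each point is 1 myofiber, with its mitochondrial percent of counts on the horizontal axis and the summed nuclear CPM of a gene set on a log axis, for the 12 genes that share bases with mitochondrial transcripts (left) and the other 53 genes at least 8-fold higher (right). Both rise with the mitochondrial share across comparison, gene-rich and RNA-poor cells. The medians are 693 and 3606 CPM in the comparison cells and 21965 and 64881 CPM in the RNA-poor cells. For the 53 genes the rise from comparison to RNA-poor cells is built in. These genes were chosen by the ratio between the groups, and the groups were chosen in part by the mitochondrial share.

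The lowest ratios belonged to processed pseudogenes, which are copies of spliced messenger RNAs set back into the genome. Of the 83 tested ones without mitochondrial bases, 58 passed the minimum level through the comparison cells alone and so had to be lower. Among the 24 with at least 20 CPM in both groups, 16 were at least 2-fold lower and 2 at least 2-fold higher, with a median log2 ratio of -1.21. The summed level of all 5110 such genes in the table was 7420 CPM in the RNA-poor and 12404 CPM in the comparison cells, a log2 ratio of -0.74. The most abundant of them in the RNA-poor cells, Gm43841, went the other way at 3117 against 115 CPM (4.76). Without it the RNA-poor sum was 4303 CPM. All 10 genes with the lowest ratio below 0 in every plate were of this kind. At 4.39 to 7.46 CPM in the RNA-poor cells, all 10 passed the minimum through the comparison cells alone. Gm7985 had 4.39 against 57.7 CPM (-3.72, limits -4.78 to -2.83) and was counted in 10 of 265 RNA-poor and 157 of 168 comparison cells, and Oaz1-ps had 6.15 against 40.3 CPM (-2.71, limits -3.59 to -1.96). Cells with a count depend on depth, at medians of 7238 nuclear counts in the RNA-poor and 225761 in the comparison cells. The other 8, Gm11953, Gm8825, Gm4654, Gm17794, Gm4819, Gm9568, Gm5430 and Gm8659, had ratios from -2.87 to -2.61. Against the 42 comparison cells with the fewest counts, which had a median of 65291.5 gene counts and 6.36 reads per count, the median of the 85 tested processed pseudogenes was -1.95, against -2.14 with all comparison cells. Because 58 of the 85 had to be lower against all comparison cells, these medians cannot tell the part of depth. Reads per count differed between the groups, as given above, and their part in this result was not tested.

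Among the tested genes, long ones had higher ratios than short ones. The median log2 ratio of protein-coding genes was -0.28 for 996 genes that span under 10 kb, -0.25 for 10 to 30 kb, -0.15 for 30 to 100 kb, 0.10 for 100 to 300 kb and 0.63 for 489 genes over 300 kb, of which 27% were at least 2-fold higher. In the plates the median of the longest class ran from 0.15 to 0.70. LincRNAs had a median of 0.52 over 124 genes, with 41 at least 2-fold higher (33.1%, against 9.91% of all tested genes). Genes that passed the minimum through the RNA-poor cells alone had to be higher, such as the lincRNA 4930453H23Rik (209 against 7.27 CPM). How many of each class did so was not counted, so that these medians and shares describe the tested genes only. In the gene-rich myofibers with a high mitochondrial share the longest class was at 1.32 against the comparison cells, and in the fragments within the same limits as the RNA-poor cells at 0.07.

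The mitochondrial counts themselves were shifted from ribosomal to messenger RNA. Ribosomal RNA made up 51.5% of the summed mitochondrial counts in the RNA-poor and 60.8% in the comparison myofibers, lower in all 8 plates by 1.82 to 13.7 percentage points. Single RNA-poor cells ranged from 19.3% to 81.0% with a median of 47.8%, and comparison cells from 36.8% to 82.6% with a median of 57.4%. The large rRNA mt-Rnr2 had 34.5% and 41.3% of mitochondrial counts, and the small rRNA mt-Rnr1 17% and 19.5%, so that their ratio was nearly kept at 2.03 and 2.12. Depth moved with this result, since in the 42 comparison cells with the fewest counts the summed share was 53.3% and in the other comparison cells 61.4%. The part of depth in it was not tested.

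Among messenger RNAs, the complex I subunits mt-Nd1 (12.3% against 8.42%, log2 ratio 0.55) and mt-Nd2 (4.28% against 2.80%, 0.61) were higher in all 8 plates. So were the ATP synthase subunits mt-Atp6 (0.594% against 0.344%, 0.79) and mt-Atp8 (0.602% against 0.373%, 0.69), mt-Nd4l (10.5% against 8.51%, 0.31) and the cytochrome oxidase subunit mt-Co1 (5.48% against 4.67%, 0.23). The complex I subunits mt-Nd5 (1.88% and 1.88%) and mt-Nd6, encoded on the other strand (1.65% and 1.65%), had a log2 ratio of 0.00, and cytochrome b, mt-Cytb, was at 10.9% and 10.4% (0.07). Transfer RNAs were 0.230% and 0.176% of mitochondrial counts, among which mt-Tq was higher (0.84) and mt-Te (-0.71) and mt-Tl1 (-1.09) lower in all 8 plates. Of the others with at least 100 counts, mt-Tv (0.22), mt-Tm (0.04), mt-Ta (-1.17), mt-Tc (-0.95), mt-Ts2 (0.68), mt-Tt (-0.50) and mt-Tp (0.23) differed in sign between plates, as did mt-Co2 (1.00).

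**Figure D5:**
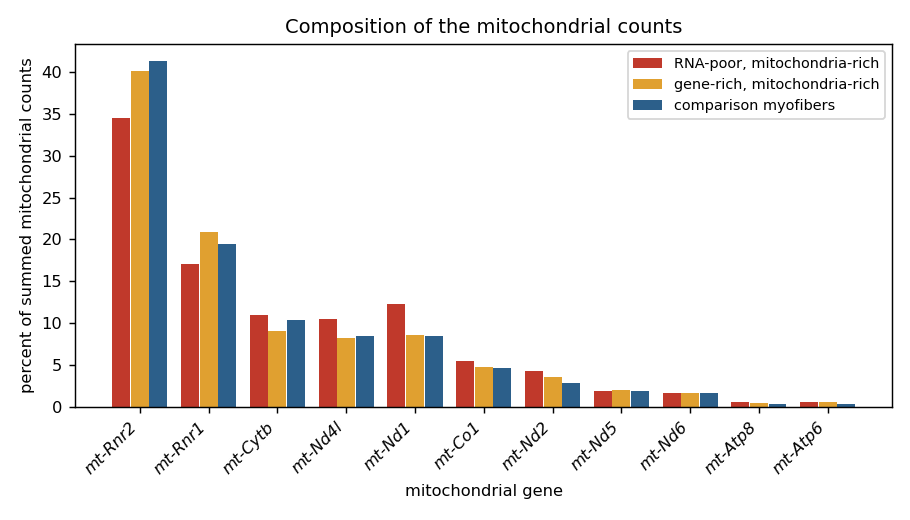
Bars give each mitochondrial gene's percent of the summed mitochondrial counts in the RNA-poor, gene-rich mitochondria-rich and comparison myofibers, for genes above 0.3% in the RNA-poor cells. mt-Rnr2 (34.5% against 41.3%) and mt-Rnr1 (17% against 19.5%) are lower and mt-Nd1 (12.3% against 8.42%) higher in the RNA-poor than in the comparison cells, and the gene-rich cells (40.1%, 20.9% and 8.62%) lie nearer to the comparison cells for these genes.

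Fibre type was described by the leading gene among Myh1, Myh2, Myh4, Myh7 and Myh8 in cells with at least 20 counts of these. Myh1 led in 230 of 263 RNA-poor cells (87.5%, exact 95% limits 82.8 to 91.2) and in 114 of 168 comparison cells (67.9%, limits 60.2 to 74.8), and Myh2 in 32 (12.2%) and 51 (30.4%). Limits cover counting only. The difference of 19.6 percentage points ran from -25.4 to 45 in single plates and was above 0 in 7 of 8. On lane 1 the shares were 75.6% and 66.3%, and on lane 2 97.9% and 69.5%. RNA-poor cells had a median of 66 counts of the 5 genes against 3310, and after thinning to 2000 nuclear counts the shares were 88.3% of the 120 RNA-poor and 70.3% of the 148 comparison cells that still had 20 such counts. In the summed counts of the 5 genes, Myh1 made up 60.7% and 62.3%, Myh2 32.6% and 29.7%, and Myh8 1.19% and 4.32%.

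Transcripts of endothelial cells, fibroblasts and red cells made up more of the nuclear RNA in the RNA-poor than in the comparison cells, and the same held in the neighbouring groups. Their 23 markers summed to 1430 CPM in the RNA-poor, 308 CPM in the comparison, 2209 CPM in the gene-rich mitochondria-rich and 1661 CPM in the gene-poor mitochondria-poor myofibers. The 10 endothelial markers summed to 810 CPM against 192 CPM, and all 10, whatever their level, were at least 2-fold higher, against 20.7% of all genes with a count. Of the 6 tested, 3 passed the minimum through the RNA-poor cells alone, and the median of the 6 was 2.09 (plates 1.38 to 3.07). Tek, an angiopoietin receptor, had 329 against 96.9 CPM (1.76), Flt1, a VEGF receptor, 184 against 27 CPM (2.76), Pecam1 65.9 against 26 CPM (1.34) and Vwf 47.9 against 14.7 CPM (1.70). Kdr, another VEGF receptor, had the largest ratio of the list at 54.9 against 5.52 CPM (3.31), with counts in 47 of 265 cells. All 8 fibroblast markers, whatever their level, were at least 2-fold higher. Of the 5 tested, 4 passed the minimum through the RNA-poor cells alone, and the 5 had a median of 2.38, among them the matrix genes Dcn (161 against 28.9 CPM, 2.48), Col1a2 (2.83), Dpt (2.38) and Fbn1 (1.65). In the smooth muscle and pericyte list Rgs5 was higher (149 against 12.5 CPM, 3.58), while Cspg4 (0.10) and Myh11 (0.75) were within 2-fold with plates on both sides of 0.

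Blood and immune transcripts were few and uneven. Haemoglobins Hbb-bs (99.2 against 9.74 CPM, 3.35) and Hba-a1 (3.10) were higher in the sum, but 10 cells held 88.5% of the erythroid counts and 49 of 265 cells had any. No immune marker reached the level for testing, and the 8 summed to 87.8 against 22.2 CPM. Of the Schwann cell list, Pmp22 had a ratio of 0.29 and Mbp of 1.08, in the satellite cell list Sdc4 had -0.43, and in the tenocyte list Scx had -1.06, although the tenocyte sum was higher by 0.64. No listed marker was at 0 in the RNA-poor cells. Per spike-in count the endothelial sum was 3.26-fold and the fibroblast sum 3.00-fold lower in the RNA-poor than in the comparison myofibers, less than the 17.1-fold of the sarcomere genes. Against the 42 comparison cells with the fewest counts the endothelial median was 1.72 and the fibroblast median 1.25. The part of other cells' RNA in the nuclear ratios was not tested.

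The RNA-poor cells differed among themselves along the mitochondrial share. From the 34 cells with 20 to 40% over the 110 with 40 to 60% to the 121 with 60 to 80%, the median nuclear counts per spike-in count were 181, 113 and 80.6, and the mitochondrial counts per spike-in count 91.2, 121 and 171. The sarcomere median was -0.33, -0.42 and -0.29, the respiratory chain median -0.40, -0.48 and -0.54, and the ribosomal protein median -0.40, -0.54 and -0.78. Genes at least 8-fold higher made up 3.37%, 7.30% and 12.1% of nuclear counts. Endothelial markers went the other way at 1035, 916 and 667 CPM. These bins use the share that chose the cells and were not tested.

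Groups next to the RNA-poor cells shared part of this profile. The 53 fragments within the same limits had a sarcomere median of -0.27, a ribosomal protein median of -0.66 and 23104 CPM of the 12 genes with mitochondrial bases, close to the 21728 CPM of the RNA-poor myofibers, and their mitochondrial counts held 50.3% ribosomal RNA. The 81 whole myofibers with over 5000 genes and at least 20% mitochondrial counts had a sarcomere median of -0.68, 11887 CPM of the 12 genes and 61.0% ribosomal RNA. In the 25 whole myofibers with at most 5000 genes and under 20% mitochondrial counts the sarcomere median was -0.08 and the level of the 12 genes 1527 CPM, nearer to the comparison than to the RNA-poor myofibers. Their mitochondrial counts held 49.9% ribosomal RNA and their other-cell markers summed to 1661 CPM, both nearer to the RNA-poor than to the comparison myofibers. All these ratios share the comparison cells.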

How the data were processed

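The authors mapped 66-base cDNA reads to GRCm38 (mm10) with spike-in sequences using zUMIs 2.2.3, STAR 2.5.4b and featureCounts (Rsubread 1.28.1). The values the authors deposited are raw UMI counts per gene and cell, in a table that also holds other rows that describe each cell. Tool versions are from the study's methods and the submitters' processing notes, which also name Cell Ranger 3.1.0, whose role is not given in the sources used here. The table held 35163 genes, 27 of them mitochondrial, and no cell name occurred more than once. No doublet caller was run on these sorted cells.

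Counts of nuclear genes, leaving out mitochondrial genes and spike-ins, were added up within each group and scaled to 1000000. Genes with a mean of at least 20 nuclear CPM were compared with a 2-fold limit, and these are called tested; no p-value was computed. CPM have exact Poisson, ratios exact conditional binomial and shares exact Clopper-Pearson 95% limits, all for counting error only. Both lanes, the deposited samples, were used together, and cells of 1 mouse are not replicates. Transcripts, biotypes and coordinates came from GENCODE M21 (GRCm38). Named genes were the 10 highest and 10 lowest ratios with the same direction in all plates with at least 5 cells of both groups, the 4 highest genes of each list, and mitochondrial genes with at least 100 counts. Members and the 23 lists were chosen with earlier results of these data known. Counts over genes at any level were added after the data were seen. The code was tested on simulated data. Alternatives changed the cell limits, the comparison cells, the scaling, the minimum level and the lanes. Python 3.11.15, numpy 2.4.6, pandas 2.3.3 and scipy 1.17.1 were used.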

Additional observations from a re-analysis of the deposited data

How the results depend on the processing

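Values below are median log2 ratios of RNA-poor over comparison myofibers unless stated, and a value counts as moved when it differs from the reported one by more than the SD over the 8 plates. The reported medians were -0.34 for sarcomere genes, -0.16 for nuclear-retained lncRNAs, -0.51 for respiratory chain genes, -0.67 for ribosomal protein genes, -0.38 for glycolytic genes and -0.36 for membrane and calcium handling genes. All of these but the lncRNAs stayed below 0 under every alternative run.

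With TMM factors the sarcomere, respiratory chain, ribosomal protein, glycolytic and membrane medians were -0.60, -0.76, -0.92, -0.63 and -0.62, and with the median of ratios -0.63, -0.80, -0.96, -0.67 and -0.65. Against the 42 comparison cells with the fewest counts, the sarcomere, respiratory chain, ribosomal protein and membrane medians were -0.43, -0.62, -0.49 and -0.25. With genes at least 8-fold higher out of the total, an alternative chosen after seeing the data, the sarcomere, respiratory chain, glycolytic and membrane medians were -0.21, -0.38, -0.25 and -0.23. Limiting the cells to at most 3000 genes gave -0.26 for sarcomere and -0.28 for glycolytic genes, and leaving mitochondrial ribosomal RNA out of the share gave -0.31 for glycolytic genes.

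The lncRNA median changed sign, to 0.024 against the 42 comparison cells with the fewest counts, 0.022 with the mean over cells and 0.049 with no minimum level. Leaving out 1 lane in turn gave -0.27 to 0.18 for the lncRNAs, -0.54 to -0.41 for the respiratory chain and -0.44 to -0.30 for glycolytic genes, and leaving out lane 2 gave the 0.18. The cause was not tested.

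Genes at least 2-fold higher numbered 618 as reported, 397 with the median of ratios, 1223 and 214 with a minimum of 10 and 50 CPM and 6800 with no minimum. Genes at least 2-fold lower numbered 232 as reported, 551 with TMM, 638 with the median of ratios, 395 and 89 with a minimum of 10 and 50 CPM and 1729 with no minimum. The number of genes compared was 9447, 2832 and 24627 under these minimums, against 6237. The median of all of them was 0.29 with no minimum and 0.0017 with genes at least 8-fold higher out of the total. The ratio of the mitochondrial ribosomal RNA share was 0.848 as reported, 0.779 with at most 3000 genes and 0.967 against the 42 comparison cells with the fewest counts.

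Among short lists, the sign also changed for the immediate early list, median log2 ratio 0.018 with genes at least 8-fold higher out of the total, and for the smooth muscle and pericyte list, median log2 ratio -0.85 against the 42 shallowest comparison cells and -0.34 with the mean over cells. It changed for the satellite cell list, median log2 ratio 0.21 with a minimum of 10 CPM and 0.62 with none, and for the tenocyte list, median log2 ratio 1.06 without mitochondrial ribosomal RNA in the share, 1.26 on lane 2 alone, 1.01 with a minimum of 10 CPM and 0.18 with none. Of the named genes 35 were at least 2-fold apart, and their 490 alternative values all kept the direction, 474 of them at least 2-fold apart. The other alternatives chosen after seeing the data were leaving genes that share mitochondrial bases out of the total and thinning for the Myh1 share. The nuclear counts per spike-in count moved by less than the plate SD under every alternative. The Myh1 difference of 19.6 percentage points had a plate SD of 22.2, so that this measure could hardly register a change, and it went from 9.33 to 28.3 with 1 lane left out. No paired analysis was possible because the 2 deposited samples, the lanes, form 1 group with no test; ratios within single plates, which hold both kinds of cell, are in the report.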
